A study of Mus musculus with 8 samples.

Results

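Zbp1, Ripk1, Ripk3, Mlkl, Casp8, Fadd, Cflar and Tradd encode the sensor, the kinases, the adaptors, the protease complex and the effector of necroptosis. These 8 genes were followed across bone marrow-derived macrophages (macrophages grown in culture from mouse marrow) of 2 genotypes and 2 treatments. They were taken by mouse symbol and matched to the Ensembl identifiers of the deposited count table, which held 55401 genes. All 8 passed the filter on low counts and were among the 17470 genes tested.

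Necroptosis is a lytic form of programmed death in which the kinase RIPK3 phosphorylates MLKL, which then inserts into the plasma membrane and breaks it. RIPK3 is engaged through a short interaction motif that it shares with RIPK1, with ZBP1, a sensor of left-handed double-stranded RNA and DNA, and with TRIF, the adaptor of the lipopolysaccharide receptor TLR4. Caspase-8, held by the adaptor FADD and paired with its catalytically inactive relative cFLIP (the product of Cflar), cleaves RIPK1 and RIPK3 and holds necroptosis back, while TRADD links the TNF receptor to RIPK1 and to FADD. In macrophages interferon is known to raise Zbp1 and Mlkl, and ZBP1 is also known for driving the NLRP3 inflammasome.

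All mice carried Mettl3 alleles flanked by loxP sites (Mettl3fl/fl). METTL3 is the methyltransferase that writes N6-methyladenosine (m6A), the most common internal mark of mRNA. Mice that in addition had Cre driven by Lyz2, a lysozyme gene of macrophages and neutrophils (Lyz2-Cre-Mettl3fl/fl), are referred to as KO, and floxed mice lacking Cre as WT. Macrophages of each genotype received PBS, or 50 ng/ml lipopolysaccharide (LPS) overnight and then 10 µM nigericin, a potassium ionophore that triggers NLRP3. Nigericin was left for 3 h according to the labels of the samples, while the text of the series gives 1 h or 3 h. Cells given both agents are called stimulated, so no value here separates LPS from nigericin. The sources used here name no strain, age or sex of the mice. Only KO cells carried Cre, so Cre and the loss of Mettl3 cannot be told apart. The title of the study joins METTL3, ZBP1 and the NLRP3 inflammasome, so the comparisons address whether Zbp1 and its partners differed with Mettl3 deletion, at rest and after stimulation.

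Each of the 4 groups held 2 libraries, with 55032057 to 65487739 counts per library. Whether the libraries of a group stem from different cultures or animals is not stated. The p-values therefore cover only the variation between libraries, which may be technical. Mettl3 was lower in KO than in WT libraries of the same treatment, at 5.63 and 6.33 against 13.6 and 13.3 CPM (counts brought to 1 common library total) with PBS and at 9.08 and 7.87 against 28.2 and 23.4 CPM after stimulation. Counts were summed over the whole gene, which includes any transcript missing the floxed part alone. The 7 macrophage markers were all detected, and summed to 41060 to 44108 CPM in WT with PBS, 44535 to 47167 in stimulated WT, 25968 to 27122 in KO with PBS and 25522 to 26636 in stimulated KO. Most of that sum was Lyz2, at 32222 to 35400 CPM in the 4 WT libraries and 14744 to 17514 in the 4 KO libraries. Lyz2 is also the gene that drives Cre in KO, and whether this bears on its level was not tested. The other 6 summed to 8316 to 8708 CPM in WT with PBS, 12313 to 12745 in stimulated WT, 9191 to 9608 in KO with PBS and 10778 to 11231 in stimulated KO. The 8 neutrophil markers summed to 3.90 to 5.89 CPM in the libraries given PBS and 28.1 to 35.4 in the stimulated ones, most of it S100a8 (2.58 to 4.24 and 26.3 to 32.1), while Ly6g and Retnlg were at 0 counts in every library. The 5 B and plasma cell markers summed to 0.414 to 0.800 CPM in WT and 2.40 to 3.62 in KO, most of it Jchain in KO. The 5 T and NK cell markers reached at most 0.199 CPM, with Cd3e at 0 counts in every library. The 5 dendritic cell markers summed to 0.529 to 0.630 CPM with PBS, 1.17 to 1.24 in stimulated WT and 2.59 to 3.67 in stimulated KO, with Flt3 at 0 counts throughout, and the 4 mast cell and basophil markers to at most 0.639 CPM. The 6 fibroblast markers were all detected in every group and summed to 163 to 183 CPM in WT with PBS, 114 to 116 in stimulated WT, 255 to 272 in KO with PBS and 293 to 328 in stimulated KO, and the part of these markers in the differences below was not tested. In bulk RNA, fewer cells of a type and less RNA per cell cannot be told apart.

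On mouse genome build GRCm38, Zbp1 (ENSMUSG00000027514) lies on chromosome 2 from 173206612 to 173218923 on the minus strand. Ripk1 (ENSMUSG00000021408) lies on chromosome 13 from 34002363 to 34037147 on the plus strand, and Ripk3 (ENSMUSG00000022221) on chromosome 14 from 55784995 to 55788865 on the minus strand. Mlkl (ENSMUSG00000012519) occupies 111311797 to 111338177 on the minus strand of chromosome 8, which also holds Tradd (ENSMUSG00000031887) at 105258286 to 105264609. Fadd (ENSMUSG00000031077) is on chromosome 7 from 144577318 to 144582463 on the minus strand. Cflar (ENSMUSG00000026031) and Casp8 (ENSMUSG00000026029) are neighbours on the plus strand of chromosome 1, at 58711508 to 58758884 and 58795374 to 58847503. All 8 are protein-coding, with 1 annotated transcript for Fadd and 13 for Cflar, and the counts do not separate transcripts. Exons of Ripk1 share 241 bp with Serpinb6a on the opposite strand, which had 164702 counts over the 8 libraries against 62047 for Ripk1. The labels do not state whether strand was kept, so reads in that overlap may belong to either gene. The antisense gene Faddos shares 239 bp with Fadd but had 61 counts against 9146.

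Sequence at the start sites of these genes is shown because 4 of the 8 rose in both genotypes (below), among them Zbp1 and Mlkl, which interferon is known to raise. The letters searched on both strands were GAAANNGAAA, the core of the interferon-stimulated response element, TTCNNNGAA, a palindrome found at many cytokine-response genes, and GGGNNNNTCC, an NF-kB core. The windows ran from 250 bases before to 50 bases after each RefSeq start (GRCm38.p6) and were found for 6 of the 8 genes, not for Zbp1 and Tradd. Among all 32851 windows 3.44% held the first motif, 8.3% the second and 19.2% the third. Cflar and Ripk1 held the first motif, the former at 7 bases after its RefSeq start and the latter at 5 bases before one of its 2 RefSeq starts. These stretches are printed 5′ to 3′ on the strand of the gene with the motif in capitals, at chr1:58711487-58711516 and chr13:34002859-34002888. Below them is a stretch of Lgals9, the gene whose pattern was most like that of Mlkl (chr11:78984960-78984989). The last is from Phf11a (chr14:59297532-59297561), a gene with a pattern like that of Zbp1, shown because it held the motif.
Cflar: ccacgtctgcTTTCGGTTTCtgggcgtctc
Ripk1: aacgttcccgGAAATCGAAAagcgcggaac
Lgals9: tgacatcagcTTTCTTTTTCtctagacact
Phf11a: cacatttagaGAAAAAGAAActagaaccta
The capitals of Cflar and Lgals9 are the motif read on the other strand. Cflar also held the NF-kB letters at 18 bases after its start, and Ripk1 held the palindrome at 108 and 11 bases before its start, where the latter overlaps the first motif. The windows of Mlkl, Ripk3, Casp8 and Fadd held none of the 3, which says only that these letters are not in these windows. For Mlkl, the 60 bases before the start (chr8:111338206-111338265, minus strand) are given to show such a window.
Mlkl: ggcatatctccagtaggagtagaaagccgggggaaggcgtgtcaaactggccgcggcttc

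The letters GGACT, the core most often methylated by METTL3, were counted on the sense strand of the longest coding transcript of each gene (GENCODE M21). m6A itself was not measured in these libraries. Zbp1 held 1 such core in 1989 bases, a density of 0.503 per kb, with 17.8% of 13276 tested coding genes below it and a median of 1.05 over them. Tradd, the member called between genotypes after stimulation, though not in all alternative settings (below), held 2 in 1689 bases (1.18 per kb, 58.8% of genes below). Ripk3 had the highest density of the 8, with 4 cores or 2.04 per kb (89.2% below), followed by Fadd with 7 or 1.79 per kb. The remaining members lay between 0.774 per kb for Casp8 and 1.50 per kb for Mlkl. The core of Zbp1 is in the coding sequence of exon 7 of 8 (chromosome 2, 173207745 to 173207749, minus strand). Both cores of Tradd are in the 3′ UTR in exon 5 of 5 (chromosome 8, 105258863 to 105258867 and 105258735 to 105258739, minus strand). They are printed on the sense strand with the core in capitals. The stretch of Zbp1 is that of the spliced transcript and runs from exon 7 into exon 8.
Zbp1: tctcaagacacaGGACTgagcaagcaatg
Tradd, nearer the start: tttccatctactGGACTtggagagcatac
Tradd, nearer the end: catacaaaaagaGGACTtgctgcaaagac

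Stimulation changed 5 of the 8 genes in WT macrophages and 6 in KO macrophages. In both genotypes Zbp1, Mlkl, Cflar and Ripk3 rose and Ripk1 fell, and in KO Casp8 rose as well. The call rule was an adjusted p under 0.05 in edgeR's quasi-likelihood test over all genes, with 4 genes higher and 1 lower in WT and 5 higher and 1 lower in KO. Many genes respond to this treatment. In WT 40.5% of all tested genes passed, 20.6% higher and 20.0% lower, and in KO 39.1% passed, 20.2% higher and 19.0% lower. The median log2 response of the 8 genes was 0.53 in WT and 0.65 in KO, against -0.01 and -0.03 for all tested genes.

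**Figure D1:**
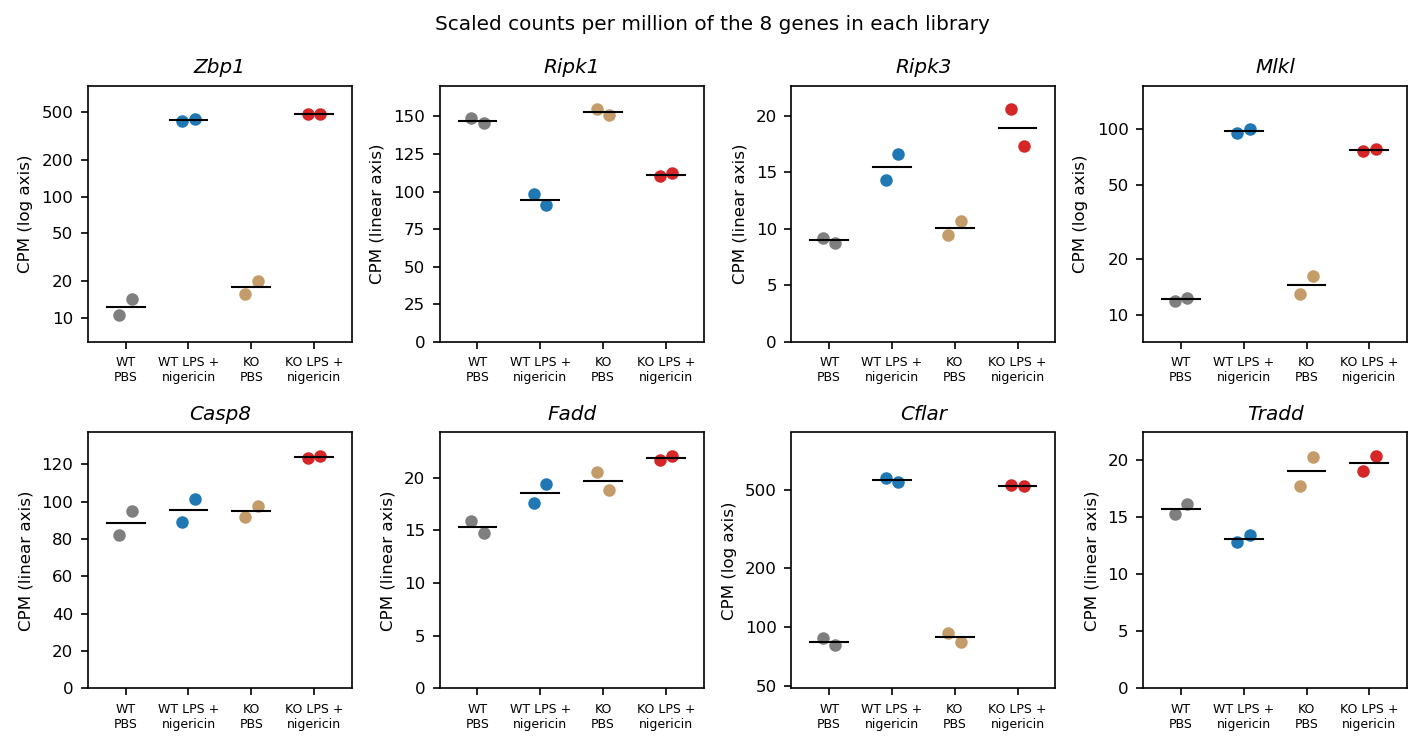
Each panel plots the CPM of 1 gene in the 8 libraries (points) with the group mean (line), for WT and KO macrophages given PBS or LPS and nigericin. Axes are logarithmic for Zbp1, Mlkl and Cflar and linear from 0 for the other genes; the stimulated libraries of Zbp1 lie between 422 and 485 CPM, and those given PBS between 10.5 and 20.0 CPM.

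Zbp1, the sensor, moved most. It stood at 10.5 and 14.2 CPM in WT with PBS, 422 and 442 CPM in stimulated WT, 15.6 and 20.0 CPM in KO with PBS and 485 and 481 CPM in stimulated KO. All 4 stimulated libraries were far above all 4 given PBS, and within each treatment both KO libraries were above both WT libraries. The response was 35.0-fold in WT, a log2 difference of 5.13 ± 0.19 (SE, adjusted p = 3.32e-06), and 27.1-fold in KO, 4.76 ± 0.18 (adjusted p = 4.09e-06). Ordered by log2 response from the highest, Zbp1 was at place 384 of 17470 in WT and 417 in KO. Between genotypes the KO level was 1.44-fold the WT level with PBS, a log2 difference of 0.53 ± 0.16 that did not pass (adjusted p = 0.195, 95% interval 0.14 to 0.91). DESeq2 put that difference at 0.52 ± 0.17 and called it (adjusted p = 0.045), while the adjusted p over all 15 alternatives ran from 0.045 to 0.531. After stimulation the difference was 0.16 ± 0.16 (adjusted p = 0.642), with an interval from -0.21 to 0.54. The KO response differed from the WT response by -0.37 ± 0.23 (adjusted p = 0.63, interval -0.90 to 0.17).

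Tradd, the adaptor of the TNF receptor, was the 1 member that passed between genotypes. Its level was 15.3 and 16.2 CPM in WT with PBS, 12.8 and 13.5 CPM in stimulated WT, 17.8 and 20.3 CPM in KO with PBS and 19.1 and 20.4 CPM in stimulated KO. The stimulated WT libraries were the lowest of the 8, and the KO libraries of both treatments overlapped each other above every WT library. After stimulation Tradd was 1.50-fold higher in KO than in WT, a log2 difference of 0.59 ± 0.11 (SE, adjusted p = 0.031). The call was lost in 7 of 15 alternatives, with the stimulated groups alone and without any 1 WT library or any 1 stimulated KO library, at adjusted p values up to 0.162. With PBS the difference was 0.27 ± 0.11 (adjusted p = 0.29). Stimulation left Tradd at -0.26 ± 0.11 in WT (adjusted p = 0.0931). That value became -0.45 ± 0.10 (adjusted p = 0.0113) with no composition factor in the scaling and passed at -0.30 ± 0.10 (adjusted p = 0.0415) with a stricter filter on low counts. In KO the response was 0.05 ± 0.11 (adjusted p = 0.75) and turned to -0.03 with no composition factor. The difference of both responses was 0.31 ± 0.15 (adjusted p = 0.527, interval -0.04 to 0.67).

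Fadd, the adaptor that holds caspase-8, was the 1 member that passed in no comparison. Its libraries stood at 15.9 and 14.8 CPM in WT with PBS, 17.6 and 19.4 CPM in stimulated WT, 20.5 and 18.9 CPM in KO with PBS and 21.6 and 22.1 CPM in stimulated KO. WT with PBS was lowest and stimulated KO highest, and the other groups overlapped. Its response was 0.27 ± 0.10 in WT (adjusted p = 0.0727, interval 0.03 to 0.51) and 0.15 ± 0.10 in KO (adjusted p = 0.283, interval -0.09 to 0.39). The genotype difference was 0.36 ± 0.10 with PBS (adjusted p = 0.164) and 0.24 ± 0.10 after stimulation (adjusted p = 0.251).

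Ripk1, the kinase that passes the TNF receptor signal on to survival or death, was the 1 member that fell. Its values were 149 and 145 CPM in WT with PBS, 98.2 and 90.9 CPM in stimulated WT, 155 and 151 CPM in KO with PBS and 110 and 112 CPM in stimulated KO. Every stimulated library lay below every library given PBS, with stimulated WT lowest. Ripk1 fell 1.56-fold in WT, by 0.64 ± 0.07 on the log2 scale (SE, adjusted p = 3.56e-04), and 1.37-fold in KO, by 0.46 ± 0.07 (adjusted p = 0.00169). Between genotypes it was at 0.05 ± 0.07 with PBS (adjusted p = 0.782, interval -0.10 to 0.21) and at 0.23 ± 0.07 after stimulation (adjusted p = 0.108, interval 0.08 to 0.39), which passed with no composition factor (0.37, adjusted p = 0.0402). The start-site stretch of Ripk1 printed above holds the interferon-response letters, and whether these letters go with a response was not tested.

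Ripk3, the kinase that activates MLKL, was at 9.22 and 8.74 CPM in WT with PBS, 14.3 and 16.7 CPM in stimulated WT, 9.47 and 10.7 CPM in KO with PBS and 20.6 and 17.3 CPM in stimulated KO. The groups given PBS were below both stimulated groups, and stimulated KO lay above stimulated WT without overlap. It rose 1.72-fold in WT (log2 0.79 ± 0.14, adjusted p = 0.00400) and 1.88-fold in KO (0.91 ± 0.14, adjusted p = 0.00214). The genotype difference was 0.17 ± 0.14 with PBS (adjusted p = 0.633) and 0.29 ± 0.14 after stimulation (adjusted p = 0.305, interval -0.04 to 0.62).

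Mlkl, the effector that breaks the membrane, stood at 11.9 and 12.3 CPM in WT with PBS, 96.1 and 101 CPM in stimulated WT, 12.9 and 16.2 CPM in KO with PBS and 76.1 and 78.3 CPM in stimulated KO. Its order between genotypes was opposite in the 2 treatments, with both KO libraries above WT given PBS and both below WT after stimulation. Mlkl rose 8.15-fold in WT (log2 3.03 ± 0.12, adjusted p = 4.44e-06) and 5.31-fold in KO (2.41 ± 0.12, adjusted p = 9.91e-06). The KO response differed from the WT response by -0.62 ± 0.16, the largest such difference among the 8 genes. This did not pass (adjusted p = 0.200, interval -0.996 to -0.244, unadjusted p = 0.00602 in edgeR's test), whereas DESeq2 gave -0.61 ± 0.19 (adjusted p = 0.0494). Over the 14 alternatives the value stayed between -0.78 and -0.45 and the adjusted p between 0.0494 and 0.497. Between genotypes Mlkl was at 0.27 ± 0.11 with PBS (adjusted p = 0.325) and at -0.35 ± 0.11 after stimulation (adjusted p = 0.138, interval -0.61 to -0.09).

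Casp8, the protease that restrains necroptosis and starts extrinsic apoptosis, had 82.2 and 94.98 CPM in WT with PBS, 89.1 and 101 CPM in stimulated WT, 91.9 and 97.8 CPM in KO with PBS and 123 and 125 CPM in stimulated KO. Stimulated KO was above every other library, and the other 3 groups overlapped. In KO Casp8 rose 1.31-fold (log2 0.39 ± 0.10, adjusted p = 0.0199), a call lost on leaving out any 1 of the 4 KO libraries (largest adjusted p 0.108). In WT the response was 0.11 ± 0.10 (adjusted p = 0.441), which turned to -0.08 with no composition factor. The difference of both responses was 0.28 ± 0.14 (adjusted p = 0.541, interval -0.05 to 0.61), so the responses are not shown to differ. After stimulation the KO level was 0.38 ± 0.10 above the WT level on the log2 scale (adjusted p = 0.0867, interval 0.14 to 0.61). That difference passed with DESeq2 (0.38 ± 0.12, adjusted p = 0.0213) and with no composition factor (0.52, adjusted p = 0.017).

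Cflar, which encodes the inactive partner of caspase-8, stood at 87.4 and 81.0 CPM in WT with PBS, 578 and 549 CPM in stimulated WT, 92.7 and 84.0 CPM in KO with PBS and 532 and 521 CPM in stimulated KO. Both genotypes overlapped with PBS, and after stimulation both KO libraries lay below both WT libraries. It rose 6.69-fold in WT (log2 2.74 ± 0.08, adjusted p = 1.26e-06) and 5.96-fold in KO (2.58 ± 0.08, adjusted p = 1.68e-06). The genotype difference was 0.07 ± 0.08 with PBS (adjusted p = 0.743) and -0.10 ± 0.07 after stimulation (adjusted p = 0.541, interval -0.28 to 0.08), and the latter turned to 0.04 with no composition factor.

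**Figure D2:**
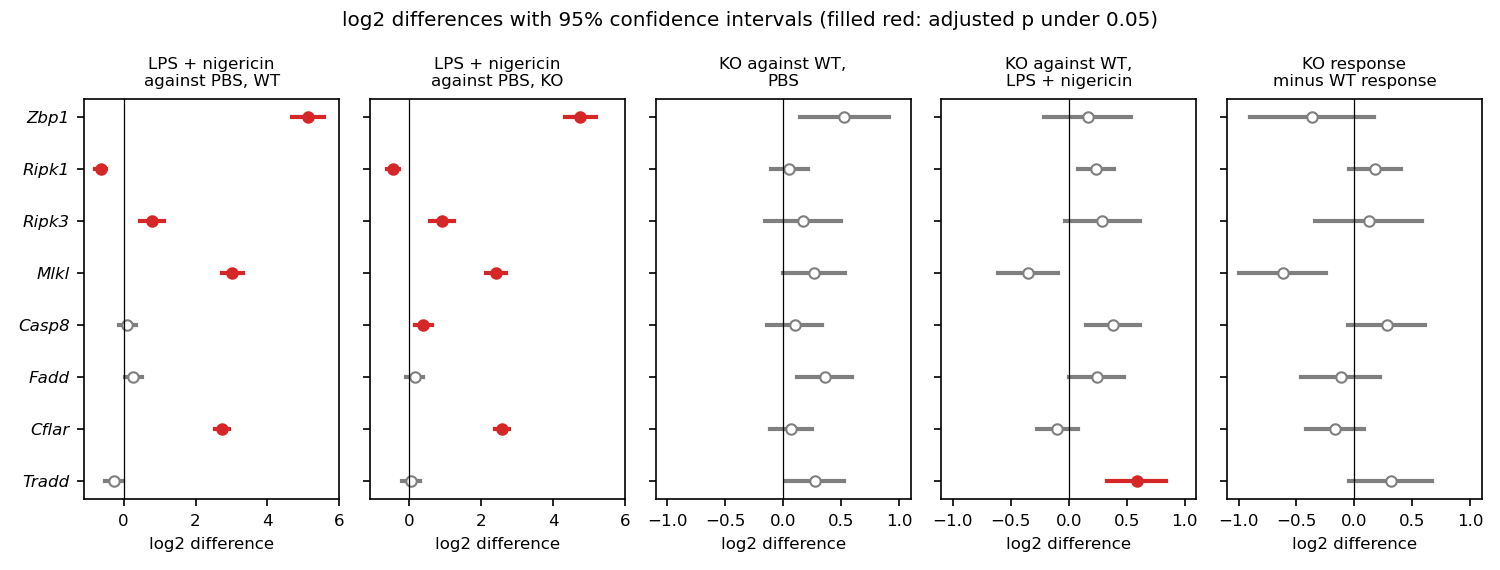
Log2 differences (points) with 95% intervals (lines) of the 8 genes in the 5 comparisons, filled red where the adjusted p was under 0.05; the 2 panels on the left span a wider axis than the 3 on the right. Responses passed for 5 genes in WT and 6 in KO, from -0.64 for Ripk1 to 5.13 for Zbp1 in WT, and in the 3 panels on the right only Tradd after stimulation passed, at 0.59.

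With PBS, 0 of the 8 genes passed between genotypes in edgeR's test, where 1.55% of all genes did (1.20% higher and 0.355% lower in KO). DESeq2 called 1, Zbp1, and 3 genes had an unadjusted p under 0.05 in edgeR's test. The share of all genes was not counted for either. All 8 log2 differences were above 0, with a median of 0.22 against 0 for all genes. For 6 of the 8, all but Casp8 and Cflar, both KO libraries were above both WT libraries, and for none were both below. Among all tested genes 24.6% had both KO libraries above and 24.0% both below. Casp8 kept its sign in all alternatives but 1, the fit without WT PBS library 1, and Cflar in all but the fit without KO PBS library 1.

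After stimulation 1 of 8 genes, Tradd, passed between genotypes, against 4.92% of all genes (2.91% higher and 2.01% lower in KO). At an unadjusted p under 0.05 in edgeR's test there were 5, and the share of all genes at that level was not counted. In 6 of the 8 both KO libraries were above both WT libraries, and in Mlkl and Cflar both were below, where 25.0% and 25.1% of all genes did the same. The median log2 difference of the 8 was 0.24 against -0.004 for all genes. Leaving the composition factor out moves every gene by 0.14 in this comparison, by 0.03 with PBS, by -0.19 in the WT response and by -0.08 in the KO response. In the difference of both responses 0 of the 8 passed, where 0.498% of all genes did (0.103% higher and 0.395% lower in KO). There DESeq2 called 1, Mlkl, which was also the 1 member with an unadjusted p under 0.05 in edgeR's test. Again the share of all genes was counted for neither. Comparisons that use the same group share its libraries, so their values are given side by side only.

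Levels of different genes were compared as CPM per kb of exon, which divides each gene by the length of its merged exons. With PBS the protease and the upstream kinase were the most abundant mRNAs. In WT with PBS Casp8 was at 30.6 ± 3.13 CPM per kb (SD, n = 2), followed by Ripk1 at 17.6 ± 0.30, Tradd at 8.45, Cflar at 6.65 and Mlkl at 5.25. Fadd (3.93), Ripk3 (3.92) and Zbp1 (3.49) closed the order and overlapped as neighbours. The order in KO with PBS opened with the same 4 genes, with Casp8 at 32.8 ± 1.44 CPM per kb, while Cflar, Mlkl, Zbp1 and Fadd overlapped as neighbours between 6.97 and 5.04 and Ripk3 was last at 4.41.

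Stimulation put Zbp1 first. In stimulated WT it reached 122 ± 3.99 CPM per kb (SD, n = 2), ahead of Cflar at 44.5 ± 1.65 and Mlkl at 42.8 ± 1.49, which overlapped. Casp8 followed at 32.9, Ripk1 at 11.3, Tradd at 7.04 and Ripk3 at 6.76, the last pair overlapping, with Fadd last at 4.74. In stimulated KO Zbp1 reached 137 ± 0.81 CPM per kb, and Casp8 (42.8 ± 0.30) stood ahead of Cflar (41.6 ± 0.58) and Mlkl (33.5 ± 0.66). No neighbours overlapped in that group, where Ripk1 was at 13.3, Tradd at 10.6, Ripk3 at 8.27 and Fadd at 5.60. The merged exons of Cflar span 12669 bp and its longest coding transcript 6572, and those of Zbp1 span 3529 and 1989. Places in these orders, such as the last place of Zbp1 in WT with PBS, therefore depend on the length used. So does the place of Casp8 ahead of Cflar in stimulated KO. Ratios between groups do not.

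Within a library, the balance between 2 genes does not depend on the scaling between libraries. The ratio of Cflar to Casp8 per kb was 0.243 and 0.195 in WT with PBS, 1.48 and 1.24 in stimulated WT, 0.230 and 0.196 in KO with PBS and 0.985 and 0.956 in stimulated KO. It was higher in every stimulated library, and lower in both stimulated KO libraries than in both stimulated WT libraries. Mlkl to Ripk3 was 1.28 and 1.40 in WT with PBS, 6.68 and 6.03 in stimulated WT, 1.36 and 1.50 in KO with PBS and 3.68 and 4.50 in stimulated KO. The same order of groups held for this ratio, with the PBS groups overlapping. Ripk3 to Ripk1 was 0.225 and 0.219 in WT with PBS, 0.530 and 0.667 in stimulated WT, 0.223 and 0.259 in KO with PBS and 0.681 and 0.560 in stimulated KO, where the genotypes overlapped in both treatments. ADAR1, the product of Adar, edits and destabilises the RNA duplexes that ZBP1 senses. Zbp1 to Adar was 0.322 and 0.493 in WT with PBS, 4.61 and 5.55 in stimulated WT, 0.497 and 0.582 in KO with PBS and 5.08 and 5.09 in stimulated KO. Stimulation raised Zbp1 mRNA far more than Adar mRNA, and the stimulated genotypes overlapped. The counts do not separate the transcripts of Adar, so the response of any single form of ADAR1 was not measured. These ratios are given as values and were not tested.

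**Figure D3:**
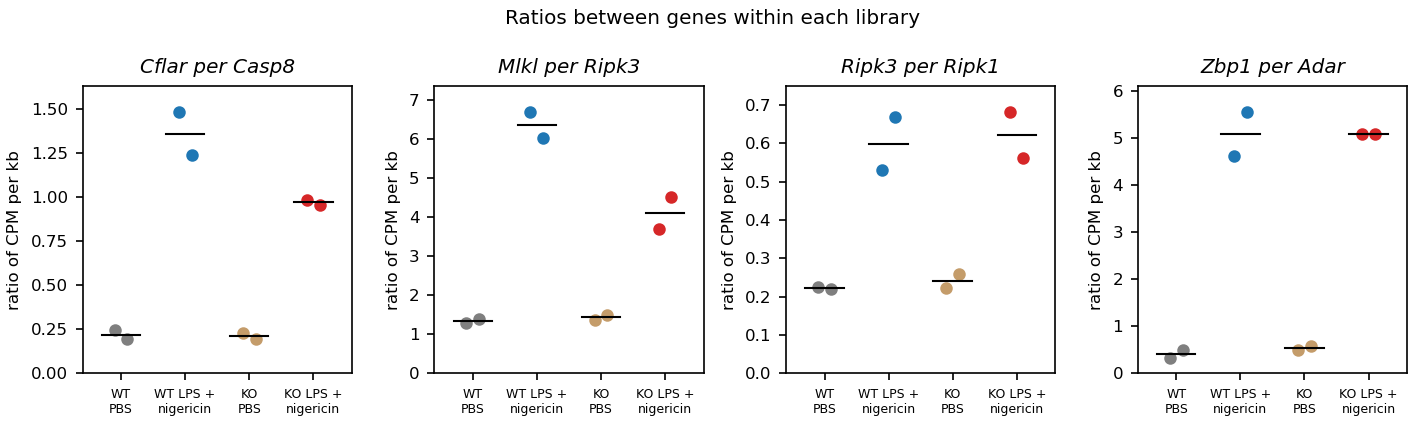
Each panel plots the ratio of 2 genes in CPM per kb within each library (points) and the group mean (line), on linear axes from 0. Cflar per Casp8 is 1.48 and 1.24 in stimulated WT against 0.985 and 0.956 in stimulated KO, Mlkl per Ripk3 is likewise lower in stimulated KO, and Ripk3 per Ripk1 and Zbp1 per Adar overlap between the stimulated genotypes.

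There were 8312 tested genes whose mean reached 10 CPM and whose symbol was not that of a predicted gene (Gm or Rik). Among them, the genes with the pattern most like that of Zbp1 were found by the root mean square difference of log2(CPM + 0.5), centred over the 8 libraries. They were Irf7, the transcription factor that amplifies interferon (0.176), Oasl1 (0.181), Usp18, a brake on the interferon receptor (0.188), Phf11a (0.188) and the chemokine Ccl2 (0.212). Irf7 stood at 22.9 and 27.6 CPM in WT with PBS, 959 and 949 in stimulated WT, 42.0 and 43.8 in KO with PBS and 839 and 903 in stimulated KO. For Mlkl they were Lgals9, which encodes galectin-9 (0.0739), the immunoproteasome subunits Psmb8 (0.128) and Psmb10 (0.138), Ifi35 (0.137) and the RNA sensor Ifih1 (0.137). Lgals9 had 76.4 and 86.2 CPM in WT with PBS, 614 and 704 in stimulated WT, 93.8 and 104 in KO with PBS and 542 and 547 in stimulated KO, the same order of groups as Mlkl. Windows at the start site were found for 8 of these 10 genes, and Lgals9, Phf11a and Ifih1 held the interferon-response motif printed above. Among all windows 3.44% held it. The windows of Irf7 and Oasl1, the genes most like Zbp1, did not.

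The other genes of the pathway were counted in 6 lists, to be read beside the 20.6% of all tested genes that rose and the 20.0% that fell in WT, and the 20.2% and 19.0% in KO. In the TNF receptor complex and its ubiquitin checkpoint, which decide whether RIPK1 promotes survival or death, 10 of 23 genes rose and 2 fell in WT and 12 rose and 1 fell in KO. In either direction that is 52.2% of the list in WT and 56.5% in KO, against 40.5% and 39.1% of all tested genes. The median log2 response of this list was 0.25 in WT and 0.35 in KO. Tnf itself rose by 7.77 ± 0.19 in WT and 7.63 ± 0.18 in KO, Birc3, a ligase that ubiquitinates RIPK1, by 1.98 ± 0.09 and 1.88 ± 0.09, and Tnip1, a ubiquitin-binding inhibitor, by 1.76 ± 0.07 and 2.09 ± 0.07. The linear ubiquitin deubiquitinase Otulin and the adaptor Spata2 were those called lower in WT, and without 1 library 0 to 2 genes were called lower in WT and 0 to 1 in KO. Tnfaip3, which encodes the deubiquitinase A20, read 741 and 330 CPM in the stimulated KO libraries against 1158 and 853 in stimulated WT, and its genotype difference did not pass (-0.91 ± 0.36, adjusted p = 0.222) in edgeR's test, while DESeq2 called it (adjusted p = 0.0462).

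Among the other death receptors and the TRIF route 3 of 8 tested genes rose in WT (37.5%, below the 40.5% of all genes called in either direction) and 5 in KO (62.5% against 39.1%), while the ligand gene Fasl was not tested. Fas rose by 2.21 ± 0.16 in WT and 1.81 ± 0.15 in KO. Ticam1, which encodes TRIF, the adaptor that shares the RIPK3 interaction motif, was at 0.19 ± 0.11 (adjusted p = 0.206) and -0.16 ± 0.11 (adjusted p = 0.274). In KO the count was 3 without KO PBS library 2 or stimulated KO library 2 and with no composition factor. In interferon signalling 8 of 13 genes rose in both genotypes, with 1 lower in WT (1 to 2 without 1 library) and 2 in KO (0 to 2), which makes 69.2% and 76.9% of the list called. Irf7 rose by 5.24 ± 0.11 in WT and 4.34 ± 0.11 in KO. Ifnb1, also in this list, had at most 12 counts in any library and was called in neither genotype.

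Of the Z-RNA editing and inflammasome partners, all 10 passed in both genotypes, 8 higher and 2 lower. The pyrin gene Mefv rose by 4.39 ± 0.12 in WT and 3.55 ± 0.12 in KO, and Adar by 1.48 ± 0.10 and 1.53 ± 0.10. Casp6, a caspase that binds RIPK3, fell by 0.82 ± 0.09 and 0.68 ± 0.09. Gsdme, a gasdermin cut by caspase-3, fell by 0.54 ± 0.17 and 0.82 ± 0.17. The Gsdme call was lost in WT without any 1 library other than stimulated WT library 2 (adjusted p up to 0.156), with no filter (0.0606) and with the WT groups alone (0.0649), and in KO without stimulated KO library 1 (0.056). In apoptosis execution 4 of 11 genes rose and 1 fell in WT, and 5 rose and 0 fell in KO, with 0 to 1 lower in each when 1 library was left out. The 45.5% of this list called in each genotype is near the 40.5% and 39.1% of all genes. Cytochrome c, Cycs, rose by 1.90 ± 0.09 and 1.97 ± 0.09. Among the MLKL partners and membrane repair genes 7 of 15 rose in WT and 8 in KO, with 0 lower in both, so 46.7% and 53.3% were called, the former near the 40.5% of all genes. The chaperone Hsp90ab1 rose by 1.15 ± 0.05 and 0.89 ± 0.05, and the membrane-repair gene Chmp4b by 0.95 ± 0.07 and 0.80 ± 0.07.

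**Figure D4:**
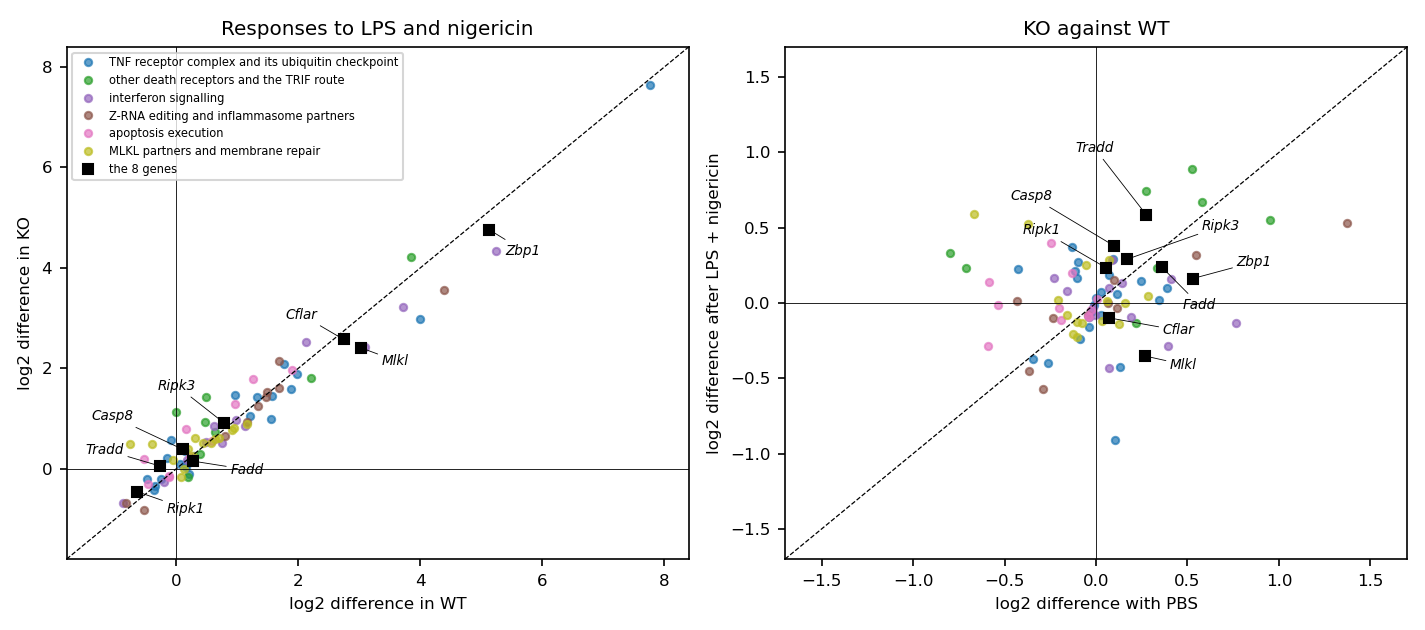
Log2 differences of the 8 genes (black squares, named) and of the pathway lists (coloured points, without Ifnb1, which had almost no counts); the left panel plots the response in KO against that in WT, the right panel the genotype difference after stimulation against that with PBS, and dashed lines mark equality. The responses of the 8 genes run along the dashed line, from -0.64 in WT for Ripk1 to 5.13 for Zbp1, while in the right panel all 8 lie right of 0 and Mlkl (-0.35) and Cflar (-0.10) lie below 0, the latter above 0 with no composition factor.

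With PBS, 4 of the 80 tested genes of the 6 lists passed between genotypes (5.0%), against 1.55% of all genes. For the unadjusted and DESeq2 counts below, the share of all genes was not counted. The death receptor gene Fas was higher in KO by 0.95 ± 0.16 (adjusted p = 0.0387), at 7.10 and 7.72 CPM against 3.27 and 4.39. Irf7 was higher by 0.76 ± 0.10 (adjusted p = 0.0167) and Mefv by 1.37 ± 0.11 (adjusted p = 0.00335), while the LPS co-receptor gene Cd14 was lower by -0.80 ± 0.09 (adjusted p = 0.0128). The Mefv call held in all 8 fits without 1 library. The Fas call was lost in 7 of them, all but that without WT PBS library 2 (adjusted p up to 0.175), that of Irf7 on leaving out any 1 PBS library other than WT PBS library 2 (up to 0.103), and that of Cd14 without WT PBS library 1 or 2 (up to 0.0679). The replicate number as a block ended the Fas call (0.0643), and a fit of the PBS groups alone ended all 4 (adjusted p from 0.0582 for Mefv to 0.151 for Fas). The TNF receptor complex, apoptosis and MLKL partner lists had 0 called genes in edgeR's test, with 4, 1 and 1 at an unadjusted p under 0.05, 1, 1 and 0 called by DESeq2, and at most 1 in each when 1 library was left out.

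After stimulation 3 of the 80 passed (3.75%), against 4.92% of all genes. For the unadjusted counts and those of other settings below, the share of all genes was not counted. The TNF receptor gene Tnfrsf1b was lower in KO by -0.43 ± 0.05 (adjusted p = 0.0095), at 2138 and 2100 CPM against 2896 and 2799. It did not survive leaving out library 1 or 2 of stimulated KO (largest adjusted p 0.0765). Mefv was higher by 0.53 ± 0.11 (adjusted p = 0.0394), at 237 and 243 against 172 and 160 CPM, which was lost without any 1 WT library or any 1 stimulated KO library (up to 0.177) and with the replicate number as a block (0.0534). The pro-apoptotic pore gene Bax was higher by 0.40 ± 0.06 (adjusted p = 0.0209), at 130 and 130.2 against 99.4 and 98.1 CPM. Leaving out WT PBS library 1 or any 1 of the 4 stimulated libraries ended the Bax call (up to 0.143), as did a fit of the stimulated groups alone (0.05004). The lists of other death receptors, interferon signalling and MLKL partners had 0 called genes in edgeR's test, with 4, 1 and 3 at an unadjusted p under 0.05, 2, 0 and 0 called by DESeq2, 3, 1 and 0 with no composition factor, and at most 1 in each when 1 library was left out.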

How the data were processed

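RNA of 8 libraries was sequenced. Per the labels' protocols, total RNA was precipitated after Trizol and a kit was used to build the libraries. Per the submitters' processing notes, Trimmomatic, Bowtie2, edgeR and mm10 were used, and the sources used here do not name the tool and annotation behind the counts. The deposited table holds whole-number counts per gene and library, and these were used as deposited.

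Symbols came from GENCODE M21, which named 55141 of the 55401 rows and all 130 listed symbols. Genes were filtered with filterByExpr (minimum count 10, minimum total 15), scaled by TMM (factors 0.888 to 1.068) and fitted over all 8 libraries with 1 coefficient per group (edgeR 4.0.16, R 4.3.3). Quasi-likelihood F tests gave the 5 comparisons, adjusted by Benjamini-Hochberg over 17470 genes. SE is the log2 difference over the root of F. The tests were checked on simulated data. Libraries of a group differed by 38.81 to 81.42 in chi-square per degree of freedom, so none repeats another.

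The 8 genes and the lists were chosen with earlier results of these data known. Named were the 8 genes, Mettl3, up to 4 genes per list with the smallest adjusted p in a response, list genes called between genotypes or in the difference of responses, and the 5 genes most like Zbp1 and Mlkl. Otulin, Spata2, Tnfaip3, Casp6, Gsdme and Ticam1 were named after their values were seen. Some genes that the rule selects are not reported here. Start-site windows are from RefSeq (GRCm38.p6) and transcripts from GENCODE M21. Alternatives were leaving out each library, a replicate block, a fit of the compared groups alone, DESeq2 1.42.0 or its size factors alone, no composition factor, and either a filter at 5 CPM (2 libraries) or none. A lone library left in a group was taken to vary like the other groups. Figures used matplotlib 3.10.9.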

Additional observations from a re-analysis of the deposited data

Results flagged for a closer look

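In 3 of the 80 tested pathway genes (3.75%) the response to stimulation differed between genotypes by edgeR's test of the difference itself, as it did in 0.498% of all genes. Cd14 differed by 1.13 ± 0.13 on the log2 scale (KO minus WT, adjusted p = 0.0225): it stood at 1121 and 1081 CPM in WT with PBS, 1074 and 1118 in stimulated WT, 690 and 578 in KO with PBS and 1416 and 1347 in stimulated KO. Tnfrsf1b differed by -0.56 ± 0.08 (adjusted p = 0.0418), with responses of 1.55 ± 0.05 in WT and 1.00 ± 0.05 in KO. Bax differed by 0.64 ± 0.09 (adjusted p = 0.0466), with responses of 0.15 ± 0.06 (adjusted p = 0.104) and 0.79 ± 0.06. Leaving out any 1 of the 4 WT or of the 2 stimulated KO libraries ended the Cd14 call (largest adjusted p 0.105). The calls of Tnfrsf1b (up to 0.176) and Bax (up to 0.217) were lost without any 1 of the 8 libraries and with the replicate number as a block (0.0628 and 0.0762), that of Tnfrsf1b also with no composition factor (0.0868) and that of Bax with no filter (0.0632). Groups of 2 libraries were too small to test for outlying samples.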

How the results depend on the processing

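With the replicate number as a block, 5, 6, 0, 1 and 0 of the 8 genes passed in the WT response, the KO response, the genotype comparisons with PBS and after stimulation and the difference of responses, the same counts as without it. Whether the numbers pair libraries is not stated. Over all tested genes, same-numbered libraries deviated together with r from -0.015 to 0.101. Noise in genes with low counts can hide a shared effect, so these values cannot exclude pairing. The block was 1 term shared by all groups, so it did not test pairing within a genotype. The share of all genes called was counted for the main fit only, so the counts under alternatives have none beside them. With DESeq2, 1 gene passed between genotypes with PBS, 2 after stimulation (Tradd and Casp8) and 1 in the difference. After stimulation 3 passed with no composition factor and 0 with only the groups compared, and without 1 library 0 to 1. The WT response had 5 to 6 and the KO response 5 to 6 over all alternatives. Signs turned only in values that did not pass. With no composition factor they were -0.0809 for Casp8 in the WT response, -0.0275 for Tradd in the KO response and 0.0399 for Cflar between genotypes after stimulation. Without 1 library, Casp8 with PBS ran from -0.0015 to 0.199 between genotypes, Cflar with PBS from -0.0038 to 0.138, Tradd in the KO response from -0.0434 to 0.149 and Ripk3 in the difference from -0.0125 to 0.256. The responses of Zbp1, Mlkl, Cflar, Ripk3 and Ripk1 passed in all 15 alternatives in both genotypes. Each of the 8 genes had at least 556 counts in every library.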
